A study of Mus musculus with 12 samples.

Results

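The 10 genes *Plin1*, *Plin4*, *Cidec*, *Fabp4*, *Lpl*, *Adipoq*, *Lep*, *Cfd*, *Retn* and *Pparg* are transcripts by which white fat cells are commonly recognised. They were chosen by symbol from the 52636 genes of the count table, and each was found under 1 Ensembl identifier. RNA-seq had been run on full-thickness, shaved back skin of C57BL/6 mice aged 3 months, in 4 groups of 3 mice, on day 14. Mice of the WT group had intact *Cdc42* and no ZnO NPs, and mice of the KO group lacked *Cdc42* where the K5 promoter of a keratin gene drives Cre, that is, in basal cells of the epidermis and hair follicle. The groups labelled WT+ZnO NPs and KO+ZnO NPs were, by their labels, mice of these genotypes with zinc oxide nanoparticles applied to the skin on every day, while WT and KO mice were given the saline and hydroxypropyl methylcellulose vehicle.

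White adipocytes lie under the dermis of mouse skin as a layer that thickens and thins with the hair cycle. They hold their triglyceride in a single large droplet coated by perilipins, take up fatty acids that lipoprotein lipase releases from blood lipids, and secrete hormones such as adiponectin and leptin. The nuclear receptor encoded by *Pparg*, together with C/EBP factors, switches on most of these genes when a precursor turns into a fat cell.

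The members lie on 7 chromosomes of GRCm38. *Adipoq* is at chr16:23146536-23158028 on the plus strand, *Plin1* at chr7:79720218-79732903 on the minus strand, *Plin4* at chr17:56100591-56109803 on the minus strand and *Fabp4* at chr3:10204088-10208576 on the minus strand. *Lep* (chr6:29060220-29073877, plus), *Cidec* (chr6:113424634-113435760, minus) and *Pparg* (chr6:115360951-115490399, plus) share a chromosome, as do *Lpl* (chr8:68880491-68907448, plus) and *Retn* (chr8:3655770-3660110, plus). *Cfd* is at chr10:79890853-79892655 on the plus strand. The 10 genes encode proteins, and 9 of them share no exon base with another annotated gene, while *Plin4* shares 17 exon bases with *Hdgfl2*. Of the 50-base stretches of their transcripts, 1.4% for *Lpl*, 0.194% for *Plin1* and 0 for the other 8 also occurred in transcripts of other genes.

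RefSeq promoter sequences on GRCm38.p6 were at hand for 8 of the 10 genes, with 11 start sites among them. The 120 bases before the start are shown for *Adipoq* and *Plin1*, whose counts stayed close to each other in most libraries, for *Cfd* and *Retn*, whose ratios to *Adipoq* were lower in the WT libraries than in all others, and for *Lep*, which had the largest SD relative to its mean in each of the 4 groups. Sequences run 5′ to 3′ on the strand of the gene, and capitals mark matches to CCAAT, to ATTGCNNAA or to the C/EBP palindrome TTGCGCAA on either strand.
Adipoq, chr16:23146416-23146535, plus: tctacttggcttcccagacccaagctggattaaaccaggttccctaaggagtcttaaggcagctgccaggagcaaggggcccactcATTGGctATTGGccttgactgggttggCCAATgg
Plin1, chr7:79732777-79732896, minus: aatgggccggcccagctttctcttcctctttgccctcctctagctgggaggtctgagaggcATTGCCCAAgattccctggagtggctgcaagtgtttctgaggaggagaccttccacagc
Lep, chr6:29060101-29060220, plus: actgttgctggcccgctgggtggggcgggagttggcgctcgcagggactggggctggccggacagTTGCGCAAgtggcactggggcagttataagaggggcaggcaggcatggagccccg
Cfd, chr10:79890733-79890852, plus: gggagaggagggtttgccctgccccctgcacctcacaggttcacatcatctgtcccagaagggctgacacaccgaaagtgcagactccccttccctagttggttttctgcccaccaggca
Retn, chr8:3655650-3655769, plus: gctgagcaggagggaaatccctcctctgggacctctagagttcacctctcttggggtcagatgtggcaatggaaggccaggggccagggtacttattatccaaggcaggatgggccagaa
Over the 250 bases before the start, TTGCGCAA was present for *Lep*, 55 bases before its start, and in 0.164% of all 32851 promoters. ATTGCNNAA was present for *Plin1* and *Cidec* and in 1.93% of all promoters, CCAAT for *Adipoq*, *Plin4* and *Pparg* and in 33.8%, and AGGTCA, the core letters that nuclear receptors bind, for *Pparg* alone and in 14.0%. The 2 C/EBP patterns can overlap. The matches are a description of letters, and the windows of *Cfd* and *Retn* held none of the 4 patterns.

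Sequencing depth lay between 21076320 and 28867802 counts per library. Levels are given in CPM, counts divided by library size and by edgeR's TMM factors. *Cdc42*, the deleted gene, was at 606.1 to 628.4 CPM in WT, 415.4 to 464.0 in KO, 310.7 to 350.1 in the libraries with the WT+ZnO NPs label and 313.5 to 453.0 in those labelled KO+ZnO NPs, so the libraries with the WT+ZnO NPs label, of mice with intact *Cdc42* by that label, lay below all KO libraries. Their *Cdc42* level thus goes against their label, and whether samples were exchanged was not tested, so a direction drawn from these libraries holds for the label only. Y-linked transcripts (4 genes, summed) reached 191.7 to 235.7 CPM in all 3 libraries with the WT+ZnO NPs label and were at 0 in all WT libraries, so for this pair of groups ZnO NPs and the sex of the mice cannot be told apart, and the methods describe the KO mice as female. Replicate 1 of KO and replicate 1 of KO+ZnO NPs also had them, at 241.7 and 237.3 CPM. Replicate 2 of KO+ZnO NPs stood apart from all other libraries in the fat cell genes, and values without it are given beside the results on the members and on the named list genes of its group. It was picked by the levels of these same genes, so member calls made without it are not an independent test. In a piece of whole skin, fewer fat cells and less RNA of these genes per cell cannot be told apart.

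In WT skin the members covered a wide range of abundance. Per kilobase of the principal transcript, *Fabp4*, the carrier of fatty acids in the cytosol, was the highest, with a mean of 3969 CPM per kilobase, and *Cfd*, the complement protease adipsin, was next at 1742. *Lpl* (502), *Cidec* (438) and *Adipoq* (410) formed a middle group whose values overlapped between the 3 WT libraries. *Plin1* (202) and *Plin4* (135) followed and overlapped with each other, and *Retn* (71.9), *Lep* (55.6) and *Pparg* (52.3) were lowest, again with overlap between neighbours, and *Retn* overlapped with *Plin4* too.

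The 3 members of the lipid droplet, *Plin1*, *Plin4* and *Cidec*, were lower in all libraries with the WT+ZnO NPs label than in any WT library. *Plin1* encodes the perilipin that coats the droplet and guards it from lipases. Its level was 390.1, 715.0 and 598.1 CPM in WT and 51.5, 100.1 and 67.4 in the libraries with the WT+ZnO NPs label. In KO it was 330.9, 152.5 and 301.6 CPM, and in those labelled KO+ZnO NPs 245.2, 2.77 and 300.2. WT was highest, KO and replicates 1 and 3 of KO+ZnO NPs overlapped, and replicate 2 of KO+ZnO NPs held only 55 counts of the gene. Between WT+ZnO NPs and WT, *Plin1* fell by 2.96 on the log2 scale (SE 1.05, 7.78-fold, adjusted p = 0.0420).

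*Plin4*, a perilipin of growing droplets, was at 450.4, 1101 and 777.0 CPM in WT and at 166.6, 163.7 and 107.0 in the libraries with the WT+ZnO NPs label. KO spread from 212.9 to 727.8 CPM, inside and below the range of WT, and KO+ZnO NPs had 320.6, 74.7 and 373.9. The gene fell by 2.41 (SE 0.61, 5.32-fold, adjusted p = 0.00899) between WT+ZnO NPs and WT. *Cidec* promotes the fusion of droplets into a single one. It was at 614.9, 711.1 and 933.7 CPM in WT and at 91.6, 175.2 and 114.3 in the libraries with the WT+ZnO NPs label, with KO in between at 599.0, 343.2 and 400.4. Replicates 1 and 3 of KO+ZnO NPs, at 677.0 and 590.0 CPM, came close to the WT values, while replicate 2 had 30.0. *Cidec* fell by 2.57 (SE 0.79, 5.93-fold, adjusted p = 0.0239) between WT+ZnO NPs and WT.

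Of the genes of fatty acid supply, *Fabp4* had the most precise difference. Its level was 2949, 4273 and 3445 CPM in WT, 430.4, 917.7 and 574.7 in the libraries with the WT+ZnO NPs label, and 1700, 842.2 and 1558 in KO. The libraries labelled KO+ZnO NPs had 2401, 1001 and 1200 CPM. WT was above all others, WT+ZnO NPs and KO overlapped narrowly, and all KO+ZnO NPs libraries were above all of WT+ZnO NPs. *Fabp4* fell by 2.47 (SE 0.42, 5.55-fold, adjusted p = 0.00112) between WT+ZnO NPs and WT, and its estimate for KO against WT was -1.38 (SE 0.41, adjusted p = 0.0607). *Lpl*, the enzyme that frees fatty acids at the vessel wall, was at 1506, 2295 and 2390 CPM in WT and at 574.4, 906.2 and 626.4 in the libraries with the WT+ZnO NPs label. KO (1220, 889.5 and 1713 CPM) and KO+ZnO NPs (1812, 246.3 and 1285) overlapped with each other and with WT. The fall of *Lpl* between WT+ZnO NPs and WT was smaller, by 1.56 (SE 0.56, 2.94-fold, adjusted p = 0.0453).

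The 4 secreted members did not all follow this order. *Adipoq*, the gene of adiponectin, was at 463.9, 452.0 and 673.8 CPM in WT, at 49.2, 125.4 and 75.6 in the libraries with the WT+ZnO NPs label and at 271.3, 187.2 and 339.2 in KO, 3 groups without overlap. In KO+ZnO NPs it was 426.6, 6.70 and 391.3. It fell by 2.67 (SE 0.98, 6.35-fold, adjusted p = 0.0471) between WT+ZnO NPs and WT. *Lep*, the gene of the satiety hormone leptin, was at 82.4, 306.4 and 154.5 CPM in WT and at 14.4, 61.0 and 8.90 in the libraries with the WT+ZnO NPs label. KO spread from 26.4 to 238.5, and KO+ZnO NPs had 45.1, 1.56 and 24.0. The mean of *Lep* was lower in WT+ZnO NPs than in WT and lower in KO+ZnO NPs than in KO, by label, but replicates differed so widely that the estimates of -2.69 (SE 1.13, adjusted p = 0.0756) for WT+ZnO NPs against WT and of -2.40 (SE 1.12, adjusted p = 0.163) for KO+ZnO NPs against KO did not pass the test.

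*Cfd* was at 1428, 1267 and 2123 CPM in WT, at 365.3, 927.4 and 655.9 in the libraries with the WT+ZnO NPs label and at 1722, 1093 and 1453 in KO. Replicates 1 and 3 of KO+ZnO NPs held the highest *Cfd* levels of all libraries, 2218 and 3615 CPM, and replicate 2 the lowest, 51.1. *Retn*, the gene of the insulin-opposing hormone resistin, was the only member with a higher mean in KO than in WT. It was at 74.5, 68.2 and 103.0 CPM in WT, at 20.8, 72.4 and 40.9 in the libraries with the WT+ZnO NPs label, at 146.2, 124.4 and 206.2 in KO and at 228.9, 3.28 and 351.4 in KO+ZnO NPs. All KO libraries were above all WT libraries, with an estimate of 0.96 (SE 0.99, adjusted p = 0.592), while WT+ZnO NPs overlapped with WT. In the comparison of WT+ZnO NPs with WT, *Cfd* (-1.31, SE 0.94, adjusted p = 0.281) and *Retn* (-0.87, SE 0.99, adjusted p = 0.497) did not pass the test.

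*Pparg*, the regulator of the program, had the smallest fall of those that passed. It was at 81.2, 104.7 and 91.2 CPM in WT, 48.1, 42.7 and 27.9 in the libraries with the WT+ZnO NPs label, 57.2, 43.3 and 62.8 in KO and 32.7, 16.1 and 77.8 in KO+ZnO NPs. WT was above all libraries of the other 3 groups, and those overlapped with each other. It fell by 1.22 (SE 0.45, 2.33-fold, adjusted p = 0.0468) between WT+ZnO NPs and WT.

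**Figure D1:**
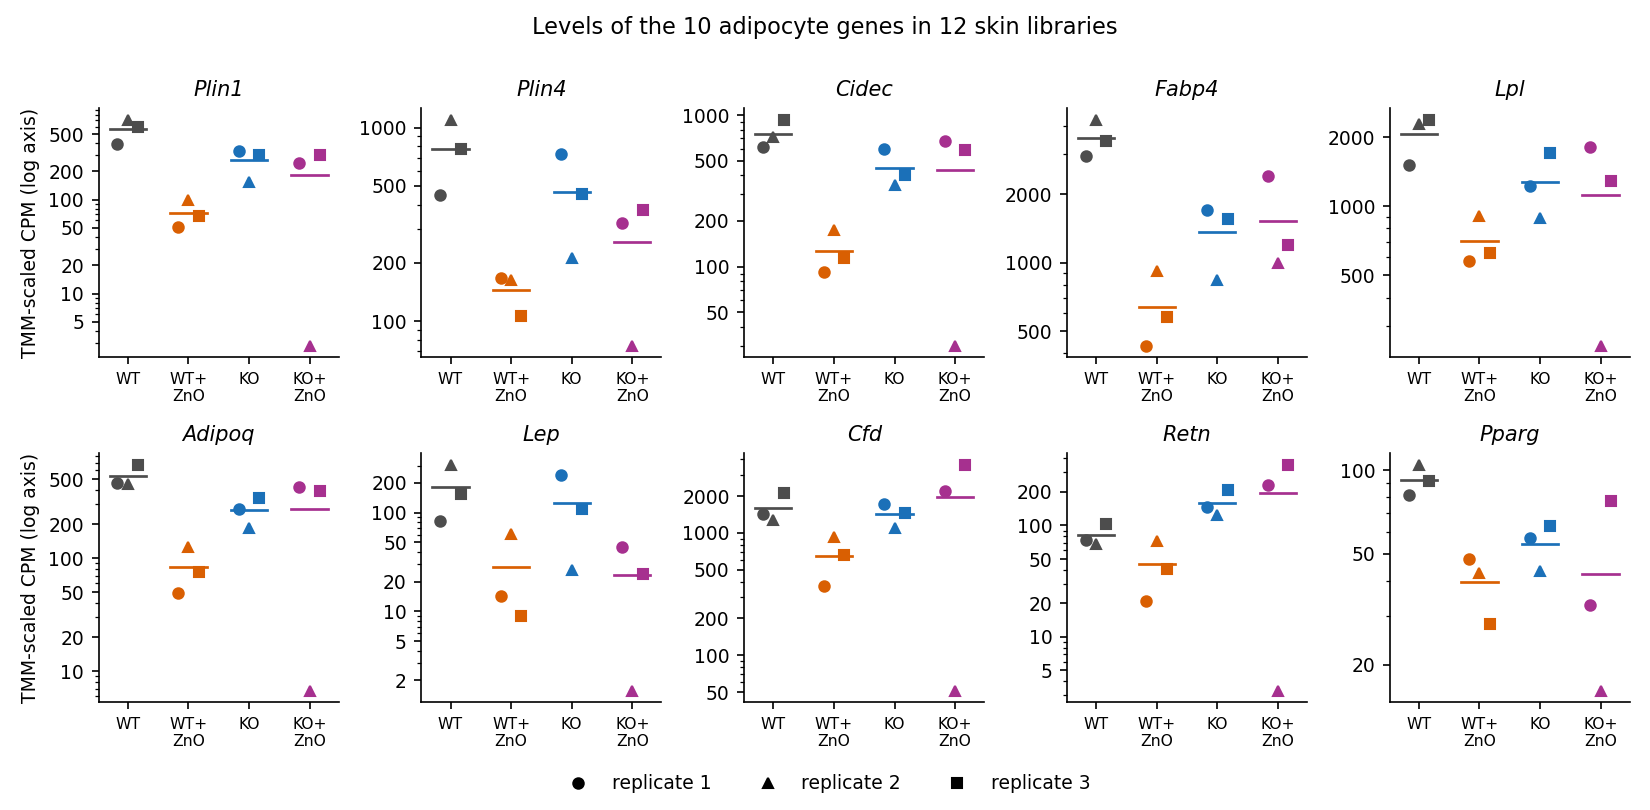
TMM-scaled CPM of the 10 adipocyte genes (log axis, 1 panel per gene) in the 3 libraries of each of the 4 groups; symbols mark the replicate and lines the group means. The libraries with the WT+ZnO NPs label lie below all WT libraries for 9 of the 10 genes, and replicate 2 of KO+ZnO NPs is the lowest library for 9, *Fabp4* being the exception.

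The comparison of the libraries with the WT+ZnO NPs label with WT was designed to ask how skin with intact *Cdc42* differs after ZnO NPs, although *Cdc42* in these libraries was lower than in any KO library. Here 7 of the 10 members fell (*Plin1*, *Plin4*, *Cidec*, *Fabp4*, *Lpl*, *Adipoq* and *Pparg*) and none rose, by the quasi-likelihood test of edgeR, adjusted after Benjamini-Hochberg over the 18822 genes tested, at an adjusted p below 0.05. Of all genes tested, 43.0% passed in either direction and 22.1% passed and were lower, so calls were common in this comparison. The median log2 fold change of the members was -2.44, against 0.06 over all genes. For 9 members all 3 libraries were below all 3 of WT, which was the case for 29.3% of all genes tested, and *Retn* was the exception. *Fabp4* and *Plin4* passed in all 22 alternative fits, *Cidec* in 19, *Plin1* in 10, *Lpl* in 9, *Pparg* in 8 and *Adipoq* in 7. The count was 2 to 4 when any 1 library of WT, WT+ZnO NPs or KO was left out and 5 without replicate 1 or 3 of KO+ZnO NPs. Without replicate 2 of KO+ZnO NPs, which enters through the shared estimate of spread, 9 members passed, *Retn* (adjusted p = 0.117) being the other.

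**Figure D2:**
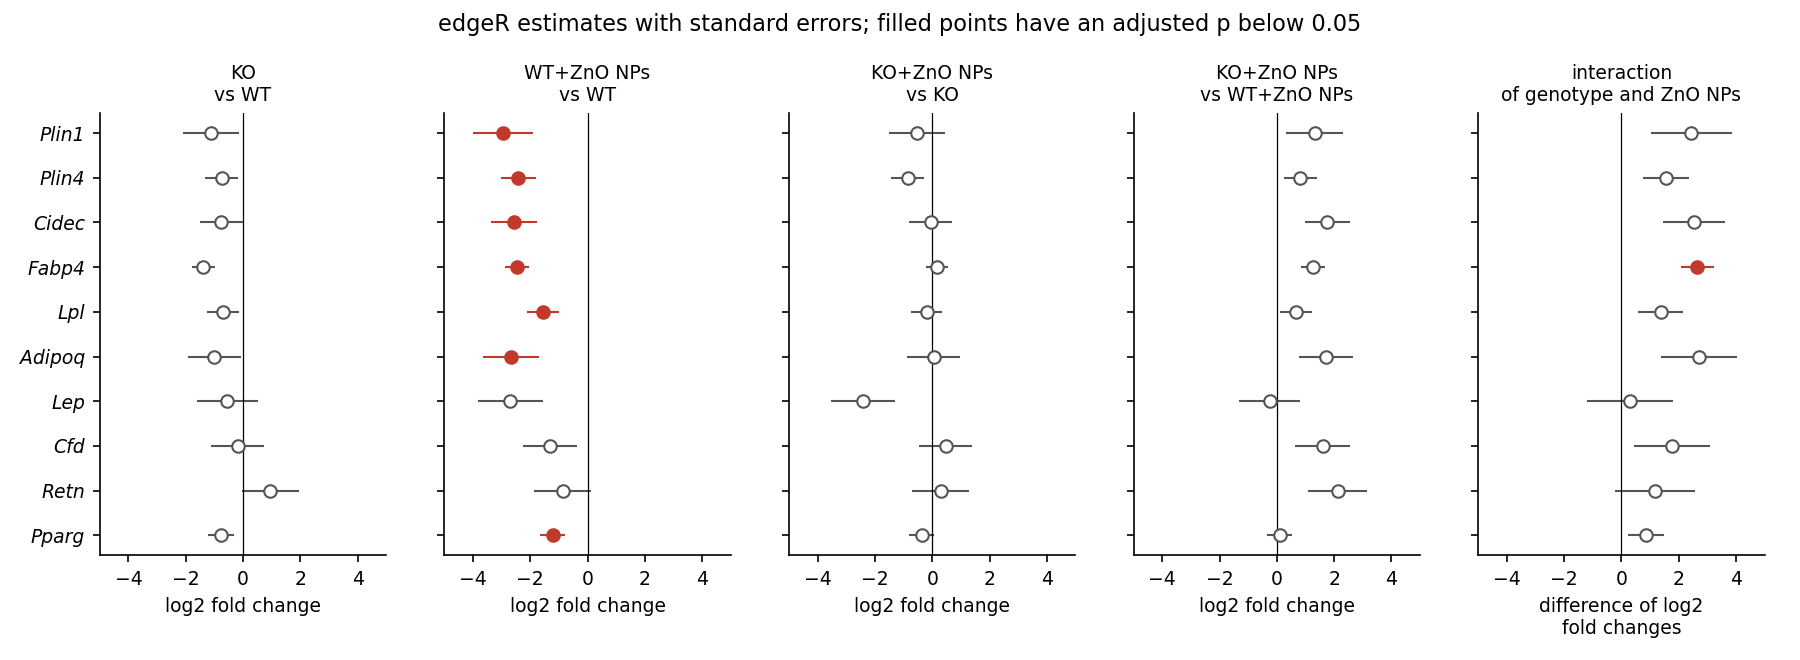
edgeR log2 fold changes of the 10 genes with standard errors (horizontal axes) in the 4 comparisons and the interaction, from all 12 libraries. Filled points passed an adjusted p of 0.05: 7 genes in WT+ZnO NPs against WT, all lower, and *Fabp4* in the interaction.

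The comparison of KO with WT, both without ZnO NPs, asks what the deletion alone was accompanied by. No member passed the edgeR test, against 8.18% of all genes. An unadjusted p below 0.05 was found for 1 member (*Fabp4*) and for 4911 of the 18822 genes. The estimates of 9 members were lower and that of *Retn* was higher, with a median of -0.74 against 0.01 over all genes. The groups did not overlap for 6 members, *Adipoq*, *Plin1*, *Cidec*, *Fabp4* and *Pparg* with lower and *Retn* with higher values in KO, and for 38.5% of all genes. This count depended on the test: DESeq2 fitted to these 6 libraries alone called all 6 of them, and edgeR fitted to these alone called *Adipoq*, *Fabp4*, *Pparg* and *Retn*. These fits also called more of all genes, 4527 and 2794 against 1540.

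The comparison of KO+ZnO NPs with KO asks the same of ZnO NPs on skin without epidermal *Cdc42*. No member passed, against 14.7% of all genes, and 0 had an unadjusted p below 0.05, which 6140 of the 18822 genes had. None had groups without overlap, against 34.7% of all genes. DESeq2 on all 12 libraries or on these groups alone also called 0 members. The median estimate was -0.12, with 4 members above and 6 below 0. Without replicate 2 of KO+ZnO NPs still none passed, and 8 of the 10 estimates were then above 0, *Lep* (-1.83) and *Plin4* (-0.40) being the others.

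When KO+ZnO NPs was compared with the WT+ZnO NPs label, no member passed, against 3.28% of all genes, although 9 of the 10 estimates were higher and the median was 1.29. *Fabp4* (1.26, adjusted p = 0.0949) was the 1 member whose groups did not overlap, as was so for 23.7% of all genes. An unadjusted p below 0.05 was found for 2 members and for 4667 of the 18822 genes. DESeq2 called *Fabp4* when fitted to all 12 libraries and 0 members when fitted to these groups alone. Without replicate 2 of KO+ZnO NPs, *Adipoq* (2.28, adjusted p = 0.0330), *Cidec* (2.30, adjusted p = 0.0232), *Cfd* (2.15, adjusted p = 0.0461) and *Retn* (2.68, adjusted p = 0.0340) were higher by the edgeR test. That library was singled out by its low levels of these same genes, so these calls are not an independent test.

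The interaction compares KO+ZnO NPs against KO with WT+ZnO NPs against WT, as labelled. It was positive for all 10 members, with a median of 1.66 on the log2 scale, and passed for *Fabp4* alone (2.64, SE 0.57, adjusted p = 0.0236), while 8.68% of all genes passed. Of 6 markers of endothelial cells, where *Fabp4* is also expressed, 4 passed and all were positive, with a median of 2.26. The part of those cells in the interaction of *Fabp4* was not tested. The call of *Fabp4* was lost without replicate 2 or 3 of WT, replicate 3 of WT+ZnO NPs or replicate 3 of KO. Without replicate 2 of KO+ZnO NPs the interaction passed for 6 members, namely *Cidec* (3.04), *Adipoq* (3.26), *Plin1* (2.99), *Fabp4* (2.85), *Cfd* (2.31) and *Lpl* (1.81). Here too the library left out was picked by the levels of the members, so these calls are not an independent test. The comparisons share groups, since WT+ZnO NPs enters 3 of these 5 contrasts and WT also 3, so their values are not independent of each other.

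Counts of the other members per count of *Adipoq* do not depend on the scaling of a library. *Retn* per *Adipoq* was 0.161, 0.151 and 0.153 in WT, 0.424, 0.577 and 0.541 in the libraries with the WT+ZnO NPs label, 0.539, 0.664 and 0.608 in KO and 0.536, 0.489 and 0.898 in KO+ZnO NPs. The WT values lay close together and all 9 other libraries were above them. *Cfd* per *Adipoq* was likewise lowest in WT, with 3.08, 2.80 and 3.15 in WT, 7.42, 7.40 and 8.67 in WT+ZnO NPs, 6.35, 5.84 and 4.28 in KO and 5.20, 7.63 and 9.24 in KO+ZnO NPs. For these ratios the log2 difference from WT was 1.96 (*Retn*) and 0.85 (*Cfd*) in KO and 1.72 and 1.38 in WT+ZnO NPs. Within KO, the library with Y-linked transcripts (replicate 1) had the lowest *Retn* per *Adipoq* but the highest *Cfd* per *Adipoq*. The 2 without them were also above WT in both ratios. The part of sex in these ratios was not tested. *Plin1* per *Adipoq* was lower in KO+ZnO NPs (0.575, 0.414 and 0.767) than in all libraries of KO (-0.76 on the log2 scale) and of WT+ZnO NPs (-0.68). It did not separate WT (0.841, 1.58 and 0.888) from WT+ZnO NPs (1.05, 0.798 and 0.891) or KO (1.22, 0.814 and 0.889). *Lpl* and *Pparg* per *Adipoq* were higher in all WT+ZnO NPs libraries than in all WT libraries, by 1.19 and 1.49. With 3 libraries against 3, the exact two-sided permutation test cannot go below p = 0.1, which each of these separated pairs had (adjusted p = 0.45 over 36 tests), so none passed.

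**Figure D3:**
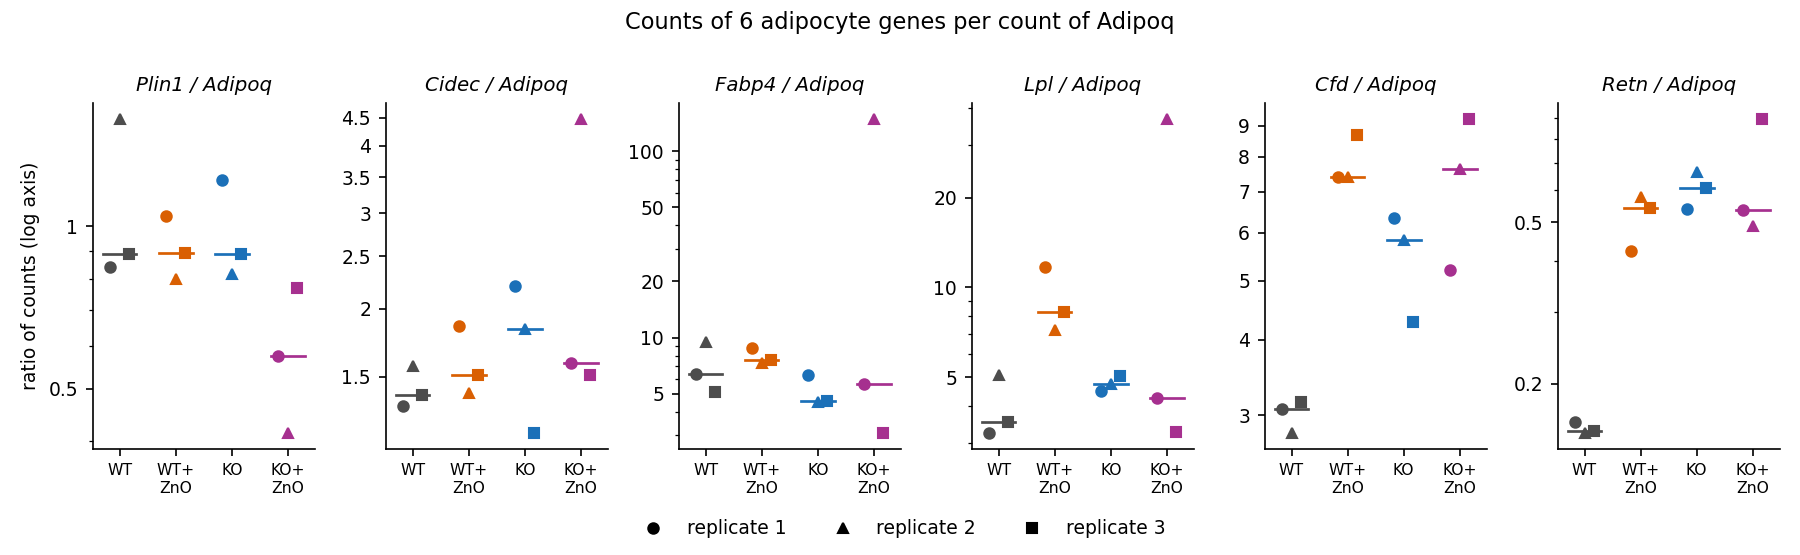
Counts of 6 adipocyte genes per count of *Adipoq* in each library (log axes), with lines at the group medians. *Retn* per *Adipoq* is 0.151 to 0.161 in WT and 0.424 to 0.898 in the 9 other libraries, and *Fabp4* per *Adipoq* reaches 149 in replicate 2 of KO+ZnO NPs.

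Replicate 2 of KO+ZnO NPs was the lowest of all 12 libraries for 9 members. It held 133 counts of *Adipoq*, 55 of *Plin1*, 65 of *Retn*, 31 of *Lep* and 1015 of *Cfd*, in a library of 22104282 counts. Among these 5 genes the proportions were within or near the range of other libraries, with 0.489 *Retn*, 7.63 *Cfd*, 0.233 *Lep* and 0.414 *Plin1* per *Adipoq*, the last being the lowest of all libraries. *Fabp4* (149 per *Adipoq*), *Lpl* (36.8), *Plin4* (11.1), *Cidec* (4.48) and *Pparg* (2.40) were in contrast far above their ratios elsewhere, which reached at most 9.45, 11.7, 3.39, 2.21 and 0.978. *Fabp4* is also a gene of capillary endothelium, and the summed level of 6 endothelial markers (*Pecam1*, *Cdh5*, *Kdr*, *Cldn5*, *Vwf* and *Tie1*) was 1016 CPM in this library, the highest of all 12, against 341.1 and 398.3 in the other libraries of its group. The part of those cells in its *Fabp4* level was not tested. Correlated across the 12 libraries with the mean of the other members on a standardised log2 CPM scale, *Fabp4* had r = 0.68 and the 9 others 0.79 (*Retn*) to 0.98. Over the 11 libraries without this one, *Fabp4* had r = 0.91 and *Retn* 0.57. Points of 1 group share their treatment, so these are descriptions.

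The remaining genes of fat metabolism were read from 8 lists of 96 genes, of which 94 passed the filter on low counts. In WT+ZnO NPs against WT, 42 of them fell and 5 rose, in KO against WT 11 fell and 1 rose, in KO+ZnO NPs against KO 7 fell and 6 rose, and in KO+ZnO NPs against WT+ZnO NPs 4 rose. The share passing was 50%, 12.8%, 13.8% and 4.26% in that order, against 43.0%, 8.18%, 14.7% and 3.28% of all genes. For the interaction 15 were positive and 1 (*Wnt10b*) was negative, 17.0% in all, against 8.68% of all genes. Those that rose in KO+ZnO NPs against WT+ZnO NPs included *Cav1* (1.12, adjusted p = 0.0396), *Ly6a* (0.99, adjusted p = 0.0490) and *Abhd5* (0.83, adjusted p = 0.0485), which passed in 9, 4 and 5 of 22 alternative fits. When replicate 2 of KO+ZnO NPs was left out, *Cav1* was at 1.25 (adjusted p = 0.0493), *Abhd5* at 0.99 (adjusted p = 0.0398) and *Ly6a* at 0.81 (adjusted p = 0.108). In KO+ZnO NPs against KO, 4 rose and 4 fell without replicate 2 of KO+ZnO NPs. The count for KO+ZnO NPs against WT+ZnO NPs was 10 without replicate 2 of KO+ZnO NPs and 0 without any 1 of the WT or KO libraries.

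Of 15 lipid droplet and lipolysis genes, 8 fell and none rose in WT+ZnO NPs against WT (53.3%, against 43.0% of all genes). Among them, *Lipe*, the hormone-sensitive lipase, went from 269.0, 417.6 and 414.9 to 52.4, 92.2 and 59.6 CPM (-2.43, adjusted p = 0.0128). *Pnpla2*, the lipase that cuts the first fatty acid from triglyceride, fell by 1.97 (adjusted p = 0.00479), *Abhd5*, its activator, fell by 0.93 (adjusted p = 0.00340), and the caveolin gene *Cav1* fell by 2.08 (adjusted p = 0.000138). In KO against WT, *Plin2*, a perilipin of many cell types, fell by 1.96 (adjusted p = 0.0111). In KO+ZnO NPs against KO, *Cidea* (2.74, adjusted p = 0.0208), *Mgll* (1.63, adjusted p = 0.0337) and *Hilpda* (0.99, adjusted p = 0.0296) rose, genes of droplet growth, of the last step of lipolysis and of lipase inhibition. Without replicate 2 of KO+ZnO NPs, *Cidea* (3.14, adjusted p = 0.0258) and *Mgll* (1.92, adjusted p = 0.0318) passed and *Hilpda* (0.79, adjusted p = 0.0820) did not. In WT+ZnO NPs against WT, *Mgll* had an estimate of 0.83 (adjusted p = 0.140), opposite in sign to the genes that fell. *Cidea* is also a gene of sebaceous glands. The summed level of 8 sebocyte markers was 884.7 to 3852 CPM in KO+ZnO NPs and 345.1 to 467.5 in KO, and its part in these rises was not tested.

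Of 14 genes of fat synthesis, 2 fell and none rose in WT+ZnO NPs against WT (14.3% passing, against 43.0% of all genes in either direction). None passed in any other comparison or in the interaction. *Dgat2*, which adds the last fatty acid to triglyceride, fell by 1.44 (adjusted p = 0.0482) and passed in 10 of 22 alternative fits, while the fatty acid synthase gene *Fasn* (0.44, adjusted p = 0.602) and *Thrsp* (-0.42, adjusted p = 0.678), its lipogenic partner, did not pass. *Fasn* ranged from 318.0 to 851.9 CPM in WT and from 666.1 to 860.1 in WT+ZnO NPs. Sebocytes make fat too, and 3 of the 8 sebocyte markers rose in WT+ZnO NPs against WT, with sums of 670.4 to 1158 CPM in WT and 1692 to 3925 in WT+ZnO NPs.

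Of 10 genes of lipid and glucose uptake, 5 fell and 1 rose in WT+ZnO NPs against WT (60%, against 43.0% of all genes). The fatty acid transporter gene *Cd36* was at 1339, 1899 and 1411 CPM in WT and at 261.7, 307.3 and 200.7 in WT+ZnO NPs (-2.59, adjusted p = 5.08e-05), and it also fell in KO against WT (-1.20, adjusted p = 0.0163). *Angptl4*, an inhibitor of lipoprotein lipase, fell by 2.10 (adjusted p = 0.00232). The insulin-responsive glucose transporter gene *Slc2a4* (0.37, adjusted p = 0.500) and *Gpihbp1*, the endothelial anchor of lipoprotein lipase (-0.63, adjusted p = 0.339), did not pass. *Slc2a4* is also a muscle gene, and the 8 skeletal muscle markers summed to 5700 to 22355 CPM in WT+ZnO NPs and 5557 to 6626 in WT.

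Among 14 adipogenic transcription factors, 6 fell and 2 rose in WT+ZnO NPs against WT (57.1%, against 43.0% of all genes), with a median of -0.047. *Cebpa*, which acts with *Pparg* in mature fat cells, fell by 0.77 (adjusted p = 0.0403) and passed in 10 of 22 alternative fits, and *Cebpb*, which acts early in differentiation and in stressed cells of many kinds, rose by 1.22 (adjusted p = 0.00428). *Cebpb* also rose in KO+ZnO NPs against KO, by 0.98 (adjusted p = 0.0336), and without replicate 2 of KO+ZnO NPs the estimate was 1.06 (adjusted p = 0.0566). Of 12 genes of insulin and adrenergic signalling, 7 fell and none rose (58.3%), with *Trarg1*, a regulator of glucose transporter traffic, lower by 3.42 (adjusted p = 0.00358) and the insulin receptor gene *Insr* by 0.54 (adjusted p = 0.0372, passing in 13 of 22 alternative fits). The fat-specific adrenergic receptor gene *Adrb3* (0.10, adjusted p = 0.924) did not pass.

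Of 13 secreted factors and receptors outside the members, 6 fell and none rose in WT+ZnO NPs against WT. The share passing was 46.2%, against 43.0% of all genes in either direction and 22.1% that passed and were lower. *Rarres2*, the gene of chemerin, was at 219.7, 330.4 and 224.5 CPM in WT and at 11.7, 26.0 and 12.7 in WT+ZnO NPs (-3.94, adjusted p = 2.75e-05), and it fell by 1.60 (adjusted p = 0.0109) in KO+ZnO NPs against KO. *Cmklr1*, its receptor, fell by 1.82 (adjusted p = 0.0129) in that comparison as well. Both passed without replicate 2 of KO+ZnO NPs, *Rarres2* at -1.56 (adjusted p = 0.0352) and *Cmklr1* at -1.51 (adjusted p = 0.0334). *Retnla*, a relative of resistin expressed by fat and by macrophages, fell by 4.17 (adjusted p = 0.000204) in WT+ZnO NPs and by 2.10 (adjusted p = 0.0274) in KO, both against WT, whereas the estimate of *Retn* in KO was 0.96. *Adipor2*, an adiponectin receptor, fell by 1.77 (adjusted p = 9.12e-05) in WT+ZnO NPs, while the estimates of *Adipor1* (-0.34, adjusted p = 0.0803), the leptin receptor gene *Lepr* (-0.35, adjusted p = 0.511) and *Rbp4* (-2.17, adjusted p = 0.0581) did not pass.

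Precursor genes went both ways. Of 10, 7 fell and 2 rose in WT+ZnO NPs against WT (90%, against 43.0% of all genes). *Ly6a*, the surface protein Sca-1 of precursors and endothelium, fell from 1135, 811.8 and 839.7 to 97.3, 164.7 and 106.2 CPM (-2.92, adjusted p = 2.96e-05) and was lower in KO than in WT as well (-1.87, adjusted p = 0.00170). *Pdgfra*, a receptor gene of fibroblasts and precursors, fell by 2.16 (adjusted p = 0.00138), and in KO+ZnO NPs against KO by 1.28 (adjusted p = 0.0439). The latter call passed in 9 of 22 alternative fits, and without replicate 2 of KO+ZnO NPs the estimate was -1.55 (adjusted p = 0.0519). The pericyte receptor gene *Pdgfrb* was the list gene that rose in KO against WT (0.80, adjusted p = 0.0446), in 10 of 22 alternative fits. *Wnt10b*, which holds precursors back from differentiation, rose by 3.53 (adjusted p = 0.000352), and *Bmp4* rose by 1.36 (adjusted p = 0.00290). *Wnt10b* and *Bmp4* are genes of growing hair follicles too, and all 7 anagen follicle markers that were matched rose in this comparison. *Dlk1* had a mean of 0.484 CPM and *Ucp1*, the gene of thermogenic fat, did not pass the filter on low counts, and 1 of 6 tested thermogenic genes fell.

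Marker genes of other skin cells also differed between the groups, some in the direction of the members and others not. All 6 endothelial markers fell in WT+ZnO NPs against WT, their sum being 681.8 to 719.9 CPM in WT, 135.0 to 281.4 in WT+ZnO NPs, 405.2 to 516.3 in KO and 341.1 to 1016 in KO+ZnO NPs. All 6 macrophage markers fell there and in KO+ZnO NPs against KO, with sums of 3118 to 4051, 183.1 to 397.9, 1763 to 3178 and 334.7 to 758.8 CPM in the same order of groups. The summed level of the 10 members was 8041 to 11294, 1812 to 3492, 3915 to 7012 and 1433 to 8407 CPM. No marker of these 2 cell types was at 0 in any library. In KO+ZnO NPs the macrophage sum was low while 2 of 3 libraries kept 8209 and 8407 CPM of the members. Hair follicle markers (7 of 8, *Krt85* not being matched to an identifier) summed to 1.19 to 4.16 CPM in WT and 1004 to 4829 in WT+ZnO NPs, and the whole list also rose in KO, where replicate 2 had 19.6 and the others 2381 and 7675. That replicate had the lowest sum of the members within KO, 3915 CPM. In KO+ZnO NPs the follicle markers summed to 6019, 4846 and 217.0 CPM in replicates 1, 2 and 3. The sums of the members there were 8407, 1433 and 8209 CPM in the same order. Keratinocyte markers summed to 7785 to 11740 CPM in WT, 5806 to 9963 in WT+ZnO NPs, 13423 to 25142 in KO and 10810 to 17186 in KO+ZnO NPs. Dermal fibroblast markers summed to 7058 to 13911, 7683 to 33429, 23178 to 37296 and 15761 to 21478 CPM in the same order. For both cell types all KO libraries were above all WT libraries, and no single marker passed the edgeR test in KO against WT. An unadjusted p below 0.05 was found for 3 of 6 and 5 of 7 of them, and for 4911 of all 18822 genes. The part of these cells, of the hair cycle and of sex in the levels of the members was not tested.

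**Figure D4:**
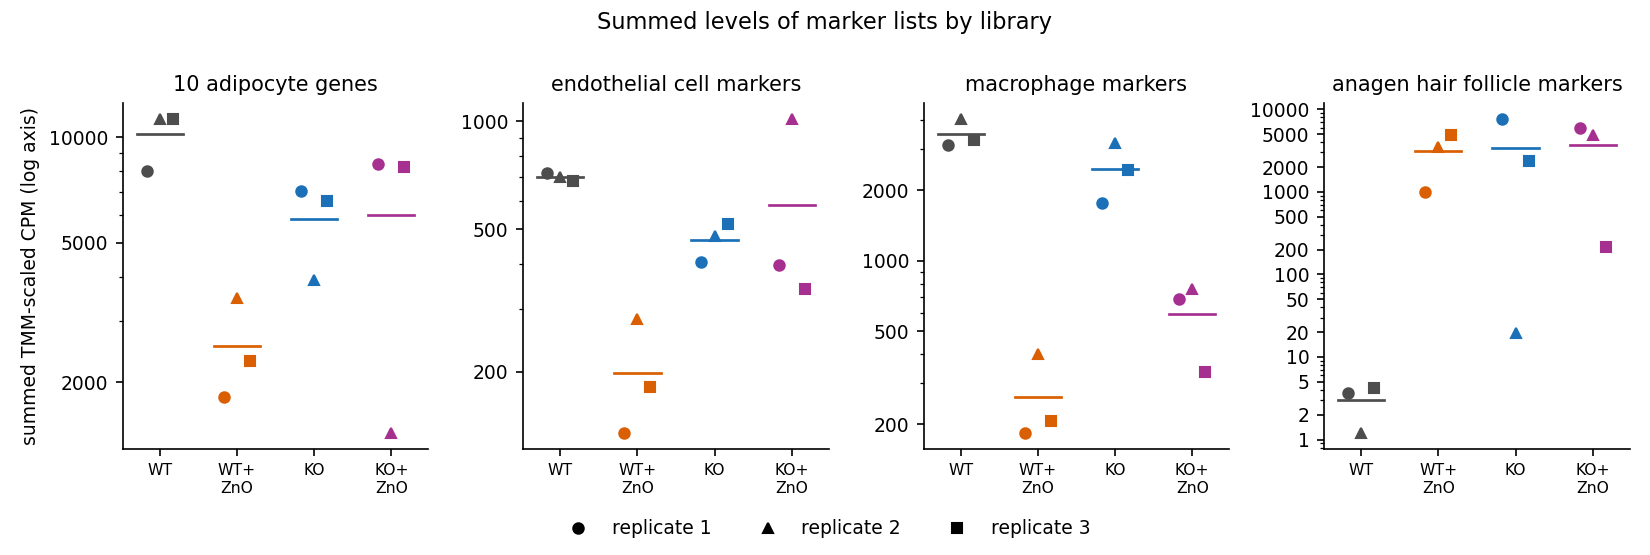
Summed TMM-scaled CPM (log axes) of the 10 adipocyte genes and of endothelial, macrophage and anagen hair follicle markers in each library, with lines at the group means. The libraries with the WT+ZnO NPs label are below all WT libraries in the first 3 panels and above them in the last, and replicate 2 of KO+ZnO NPs has the lowest adipocyte sum and the highest endothelial sum.

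Among 11259 other genes whose mean reached 10 CPM, those most like the members were sought by Pearson's r between log2 CPM and the mean of the members' standardised values over the 12 libraries. The first 10 were *Slc1a5* (0.990), *Abcd2* (0.988), *Lipe* (0.986), *Aoc3* (0.986), *Adhfe1* (0.982), *Slc7a10* (0.982), *Gpat3* (0.977), *Rbp4* (0.974), *Amy1* (0.973) and *Glb1l2* (0.972). *Slc1a5* encodes a glutamine transporter and was at 449.0, 549.7 and 624.6 CPM in WT, 170.4, 201.4 and 173.7 in WT+ZnO NPs and 443.1, 309.8 and 413.0 in KO. It had 400.0, 55.1 and 394.5 CPM in KO+ZnO NPs, so that replicate 2 was low there too. Without that library, *Lipe* (0.993) and *Adhfe1* (0.988) ranked first, *Tspan12* (0.984), which was at rank 310 over all libraries, came next, and *Glb1l2* moved to rank 44.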

How the data were processed

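RNA of skin from 3 mice in each of 4 groups was measured by RNA-seq, and groups were taken from the sample labels. The authors deposited raw counts of reads for each of 52636 genes. The submitters' processing notes name HISAT2 2.0.5 and mm10, and the labels a TruSeq kit, whereas the study's methods name STAR, HTSeq and a NEBNext kit. Which annotation was counted, and whether strand was used, are not given in the sources used here. Of the identifiers, 52403 were matched to GENCODE M21 on GRCm38, and 0 entries named no gene.

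edgeR 4.0.16 in R 4.3.3 fitted these counts in all 12 libraries, with TMM factors, its filter on low counts, 1 coefficient per group and the quasi-likelihood test. P-values were adjusted after Benjamini-Hochberg over 18822 genes, and all 10 members passed the filter. Standard errors are approximate, since they were derived from the F statistic of each estimate. Replicates differed by more than the sampling noise (chi-square per degree of freedom 39.3 to 169) and were kept as separate samples. The fits were repeated with RLE factors, with library size only, with DESeq2 1.42.0, on only the groups compared, with other filters, with a minimum fold change of 2, with a replicate block, with Y-linked transcripts as a covariate, without the KO and KO+ZnO NPs libraries that have them, and without each library in turn. The steps were tested on simulated data.

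The members and lists were chosen with earlier results of these data known. Named genes are the members, 18 list genes always given (*Cebpa*, *Cebpb*, *Pnpla2*, *Lipe*, *Slc2a4*, *Cd36*, *Fasn*, *Dgat2*, *Adrb3*, *Ucp1*, *Adipor1*, *Adipor2*, *Lepr*, *Rbp4*, *Dlk1*, *Gpihbp1*, *Insr* and *Thrsp*), the 10 genes most like the members, and for each comparison up to 3 called list genes per direction whose mean reached 10 CPM and whose groups did not overlap. Genes the rule named in 1 comparison are also given in others. Of the listed genes *Krt85* was not matched.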

Additional observations from a re-analysis of the deposited data

Results flagged for a closer look

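The interaction term of the edgeR fit, which compares KO+ZnO NPs against KO with WT+ZnO NPs against WT as labelled, passed for *Fabp4* and for 16 of the list genes (adjusted p over all 18822 genes, of which 8.68% passed), and values are given for *Fabp4* and the 8 of these that are among the named genes. *Fabp4* had an interaction of 2.64 on the log2 scale (SE 0.57, adjusted p = 0.0236). The others with a positive interaction were *Ly6a* (2.86, adjusted p = 0.00198), *Retnla* (2.72, adjusted p = 0.0345), *Angptl4* (2.68, adjusted p = 0.0212), *Rarres2* (2.34, adjusted p = 0.0122), *Cav1* (2.16, adjusted p = 0.00799), *Cd36* (2.15, adjusted p = 0.00874) and *Adipor2* (1.44, adjusted p = 0.0143). All 8 fell in WT+ZnO NPs against WT, and in KO+ZnO NPs against KO only *Rarres2* (-1.60, adjusted p = 0.0109) passed. *Wnt10b* had a negative interaction (-2.51, adjusted p = 0.0390), with an estimate of 3.53 in WT+ZnO NPs against WT and of 1.02 in KO+ZnO NPs against KO. Of the cell markers, 4 of 6 endothelial (median 2.26) and 2 of 6 macrophage genes (median 1.84) passed with a positive interaction. All 7 matched anagen follicle markers passed with a negative one (median -10.7), and no marker of the other lists passed. The part of these cells in the 9 values was not tested. Of 20 alternative fits, the call of *Wnt10b* passed in 8 and that of *Retnla* in 9. The call passed in all 20 for *Cd36*, *Ly6a* and *Cav1*, in 19 for *Rarres2*, in 18 for *Adipor2* and *Angptl4* and in 16 for *Fabp4*. All libraries with the WT+ZnO NPs label, which enter each of the 9 values, had Y-linked transcripts. With these as a covariate the interaction passed for *Fabp4* (3.36, adjusted p = 0.0335), *Cav1* (adjusted p = 0.0285), *Cd36* (adjusted p = 0.0422), *Angptl4* (adjusted p = 0.0262) and *Ly6a* (adjusted p = 0.0262), and did not for *Rarres2* (adjusted p = 0.0681), *Adipor2* (adjusted p = 0.0735), *Retnla* (adjusted p = 0.124) and *Wnt10b* (adjusted p = 0.179). No WT library had Y-linked transcripts, so the covariate rests almost wholly on replicate 1 of KO and of KO+ZnO NPs. It assumes the same slope in WT skin and cannot separate sex from ZnO NPs there. Without replicate 2 of KO+ZnO NPs all 9 passed, with *Wnt10b* (adjusted p = 0.0448) and *Retnla* (adjusted p = 0.0484) nearest the threshold.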

How the results depend on the processing

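Of the 10 members, 7 were called in WT+ZnO NPs against WT. The count was 4 with library size only, which moved the median of all genes to 0.16, 4 with Y-linked transcripts as a covariate, 4 without the KO and KO+ZnO NPs libraries that have them, and 2 to 9 when 1 library was left out. It was 3 with the replicate number as a block. Sex and ZnO NPs go together in this pair of groups, so the covariate cannot separate them. The deviations of same-numbered libraries correlated at -0.34 to 0.43. Libraries of different numbers were not compared, so whether replicate numbers pair the samples stays unknown. The block moved no other count of member calls. In KO against WT, the 0 members called became 1 with DESeq2 on all libraries, 6 with DESeq2 and 4 with edgeR on only these groups, 1 with the Y-linked covariate and 0 to 1 with 1 library left out. In KO+ZnO NPs against WT+ZnO NPs they became 1 when DESeq2 was fitted to all libraries and 0 to 4 with 1 library left out, and the interaction count of 1 became 0 to 6. In KO+ZnO NPs against KO it stayed at 0 throughout.

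The 12 list genes called in KO against WT became 27 with DESeq2 on all libraries, 41 with DESeq2 and 26 with edgeR on only these groups, 5 without replicate 1 of KO and of KO+ZnO NPs and 4 to 19 with 1 library left out. Those replicates have Y-linked transcripts, as do all libraries of WT+ZnO NPs, which stayed in that fit. The 47 in WT+ZnO NPs against WT became 37 to 50 with 1 library left out. The 13 in KO+ZnO NPs against KO became 8 with a minimum fold change of 2, 4 with edgeR on only these groups and 2 to 14 with 1 library left out. They became 18 with DESeq2 on all libraries (10 higher, 8 lower) and 13 without replicate 1 of KO and of KO+ZnO NPs (7 higher, 6 lower), which turns the majority from lower to higher. The 4 in KO+ZnO NPs against WT+ZnO NPs became 1 with a minimum fold change of 2, with RLE factors, with library size only and with no filter, 18 with DESeq2 on all libraries, 0 with edgeR on only these groups, 0 with the Y-linked covariate, 0 without replicate 1 of KO and of KO+ZnO NPs and 0 to 10 with 1 library left out. The 16 of the interaction became 28 with DESeq2 on all libraries, 4 with the Y-linked covariate, 9 without replicate 1 of KO and of KO+ZnO NPs and 6 to 30 with 1 library left out. The causes were not tested.

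Turns of direction touched only estimates that passed no test. With library size only, the replicate block and the covariate, *Pparg* in KO+ZnO NPs against WT+ZnO NPs was -0.021, -0.064 and -0.042, and it ranged from -0.71 to 0.47 with 1 library left out. *Adipoq* in KO+ZnO NPs against KO was -0.11 with the block, -0.052 with the covariate, -0.40 without replicate 1 of KO and of KO+ZnO NPs and -0.42 to 0.64 with 1 left out. *Fabp4* was -0.12 there without those libraries and -0.31 to 0.42 with 1 left out. In that comparison the ranges with 1 left out were -0.53 to 0.52 for *Cidec*, -0.73 to 0.30 for *Lpl*, -1.05 to 0.077 for *Plin1*, -1.14 to 0.037 for *Pparg*, -0.30 to 1.05 for *Cfd* and -0.43 to 0.89 for *Retn*. In KO against WT they were -0.34 to 0.076 for *Cfd* and -1.43 to 0.070 for *Lep*. For *Lep* in KO+ZnO NPs against WT+ZnO NPs the value was 0.67 with the covariate and -1.12 to 1.02 with 1 left out, and its interaction -0.58 to 1.56.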
